A study of Mus musculus with 8 samples.

Results

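The course described here is that of Dnmt3a-KO satellite cells kept in differentiation medium for 2, 4, 5 or 6 days, 4 of the 8 arrays of the study, chosen by their genotype label. Satellite cells are the stem cells of skeletal muscle. They came from the extensor digitorum longus (EDL, a muscle of the lower hindlimb made mostly of fast fibres). The donors were Dnmt3a-KO mice of 8 weeks and WT littermates of the same age, all labelled male. Both genotypes grew for 5 days in growth medium and were replated at equal cell number before the medium was changed, and their total RNA was hybridised, labelled with Cy3, to 1-colour Agilent arrays. Each genotype and day has 1 array, so no day has a replicate, and the labels say neither whether the days came from separate animals or cultures, nor how many animals were pooled, nor which promoter or Cre line removed Dnmt3a. Levels below are scaled signals, the processed signal divided by the array's own 75th percentile, and differences are on the log2 scale of them.

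Dnmt3a is a de novo DNA methyltransferase, an enzyme that places methyl groups on cytosines not yet methylated. When myoblasts lose growth factors they leave the cell cycle, switch on Myog under the lead of Myod1, fuse into multinucleated myotubes and then build sarcomeres, the units of myosin and actin that contract. Markers of the stem cell state, such as Pax7 and the Notch receptors, are known to decline along this route, while embryonic and neonatal myosins give way in part to adult forms.

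The array of day 2 stood apart. It lay on a slide of its own, was read by another scanner model and extracted with a later software version than days 4 and 5, which shared a slide, and day 6, which had another; slide, scanner, software and day therefore cannot be told apart in any comparison with day 2. Pearson's r between the day 2 array and the later Dnmt3a-KO arrays lay between 0.947 and 0.956 across genes, against 0.986 to 0.991 among days 4, 5 and 6. Between 62.2% and 67.4% of the spots were well above background on the 4 arrays, and no spot of the day 2 array was at or below 0, against 5395 to 5589 on each later one. Sex-linked genes also split at day 2. Eif2s3y on the Y chromosome read 3.41 on day 2 and the floor of 0.00763 on days 4, 5 and 6, and Xist, the RNA of the inactive X chromosome, read the floor on day 2 and 0.914, 0.527 and 0.544 afterwards. WT showed the same split, although every array is labelled male. By these genes the cells of day 2 and those of the later days were not of the same sex. The sex and source of the cells therefore cannot be told apart from the day, slide, scanner and software either. All 3 later arrays are concerned, so no comparison with day 2 can be made without them, and the part of this difference in the results was not tested.

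Muscle markers were bright. Of 9 skeletal muscle markers 8 were measured: Myog read 93.2, 81.5, 62.9 and 75.6 on days 2, 4, 5 and 6, Des read 29.9, 52.0, 59.4 and 53.2, and Cdh15 read 48.4, 20.3, 16.8 and 17.6. Myf5, a factor of early myoblasts, was not well above background on any Dnmt3a-KO array. Markers of other cell types were present beside them. Of 17 fibroblast and fibro-adipogenic markers 14 were tested, with summed levels of 14.5, 24.2, 62.9 and 30.2 over the 4 days; Lum, Dpt and Dpp4 were not well above background. The 11 macrophage and leukocyte markers tested, of 18, summed to 21.7, 10.4, 11.8 and 9.37, most of it from Itgam, while Lyz2, Cd68, C1qa and Tyrobp were not well above background. That Itgam level rests on a single probe, as its other probes read between 0.0118 and 0.0638 on the 4 arrays. In such bulk samples fewer cells of a type and less RNA per cell cannot be told apart.

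Dnmt3a itself was read by a probe at chr12:3914320-3914379 (mm9, the build named in the file headers). Its signal over days 2, 4, 5 and 6 was 0.240, 0.524, 0.542 and 0.389 in Dnmt3a-KO cells and in WT cells 0.519, 2.65, 2.50 and 2.04. Every Dnmt3a-KO array lay below the WT array of its day, and the sources used here do not say which exons were deleted. Within the knockout course the mean of days 4 to 6 was 1.0 ± 0.26 (log2, SE) above day 2, which missed the threshold (limma adjusted p = 0.0731). That call depends on the genes and arrays fitted: the adjusted p by limma was 0.0359 with genes above background on all 4 arrays and 0.0262 with the spread taken from all 8 arrays. Of the 16 genes of the methylation machinery, Dnmt3a included, 2 rose (12.5%) and 3 fell (18.8%), beside 16.4% and 13% of all genes tested. Dnmt1, which copies methylation after replication, read 0.439, 0.219, 0.258 and 0.239, and Uhrf1, which guides Dnmt1 to replicated DNA, read 2.19, 0.642, 0.945 and 0.630. Both fell, by 0.88 ± 0.13 and 1.59 ± 0.32 (log2, SE; limma adjusted p = 0.034 and 0.0493).

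The first comparison asked how transcripts differed between day 2 and the later days. The mean of days 4, 5 and 6 was set against the single day 2 array for 23055 genes, with the spread of the 3 later arrays (2 residual degrees of freedom, shared over genes by limma) standing for that of day 2. At an adjusted p of 0.05, 3779 genes (16.4%) rose and 2991 (13%) fell; 2425 and 1817 of them by at least 2-fold. Shares close to these were seen in the lists of the neuromuscular junction, fusion, creatine and glycolysis, cyclin-dependent kinase inhibitors and TGF-beta, with 10% to 17.2% rising and 8.33% to 22.2% falling. The smallest adjusted p was 0.0136. Leaving out day 4, 5 or 6 for all genes left 0 calls in each case, with 1 residual degree of freedom, and the cause was not tested. Genes that lacked a usable spot on 1 later array, such as Acta1 and Myot, could still pass in the full fit. Of the calls, 757 rises had a day 2 signal not well above background and 729 falls had no later array above it. The balance of rises and falls depends on the background correction: rises were 55.8% of the calls here and 30.4% with normexp correction, which moved the median difference of all genes from 0.08 to -0.28.

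The largest rise was that of Myh2, the fast type IIa myosin heavy chain (probe at chr11:67010960-67011019, mm9). Its signal was 0.189 on day 2 and 61.7, 98.7 and 89.1 on days 4, 5 and 6, a 432-fold difference (8.75 ± 0.34, log2, SE; limma adjusted p = 0.0136). The day 2 array alone was low, and the later arrays differed little from each other beside that step. The 12 largest rises also held genes of varied function. Myl2, the regulatory light chain of slow muscle, read 0.158 and then 8.45, 15.2 and 13.7 (6.26 ± 0.43; limma adjusted p = 0.0172). Smtnl1, a smoothelin-like protein, read 0.0124 and then 1.31, 1.98 and 1.51 (6.99 ± 0.29; limma adjusted p = 0.0141), and Atp1b4, a muscle protein related to sodium pump subunits, rose at least 233-fold from a day 2 signal not well above background. Igsf1, Dupd1, Il1rl1, Thrsp, Calml3 and Xist were the others that were also higher later in WT. Med4, a Mediator subunit, and Tmem39a differed from them: WT read 2.62 and 0.779 for these on day 2, where Dnmt3a-KO read 0.0173 and the floor, and a further Med4 probe differed by -0.14 in Dnmt3a-KO.

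Fast sarcomere genes rose as a group: 13 of 17 rose (76.5%) and 1 fell (5.88%), beside 16.4% and 13% of all genes tested. Their median difference was 0.96 against 0.08 for all genes tested. Mybpc2, the fast myosin-binding protein C, read 0.292 on day 2 and 2.54, 4.01 and 2.87 later (3.4 ± 0.33; limma adjusted p = 0.0215). Tnnt3, fast troponin T, read 109 and then 203, 216 and 210.3, and Tnni2, fast troponin I, read 155 and then 283, 336 and 318; for each the later arrays were all higher and lay close together. These rose by 0.95 ± 0.09 and 1.01 ± 0.14 (limma adjusted p = 0.0214 and 0.0307). Acta1, skeletal actin, read 169 on day 2 and 337 and 358 on days 5 and 6, without a usable spot on day 4 (1.04 ± 0.11; limma adjusted p = 0.0426). The adult myosins did not share the step of Myh2. Myh1 (type IIx) read 116, 124, 111 and 111 and Myh4 (type IIb) 15.8, 10.7, 21.7 and 9.69, so that day 2 lay inside the range of the later days for both. The gene that fell, Myh13, was well above background on the day 2 array alone.

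Of the 21 developmental and slow sarcomere genes 9 rose (42.9%) and 0 fell (median 0.52), beside 16.4% and 13% of all genes tested. Embryonic Myh3 and neonatal Myh8 were already bright on day 2. Myh3 read 221 and then 241 and 245 on days 5 and 6, and Myh8 read 182 and then 232 and 229.7, both without a usable spot on day 4 and neither past the threshold (limma adjusted p = 0.416 and 0.139). Myh7, the slow myosin, read 2.58 on day 2 and 10.2, 7.49 and 8.80 later (1.76 ± 0.22; limma adjusted p = 0.027). Mybpc1, the slow myosin-binding protein C, read 12.3 and then 54.1, 56.6 and 48.6 (2.11 ± 0.13; limma adjusted p = 0.0171).

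**Figure D1:**
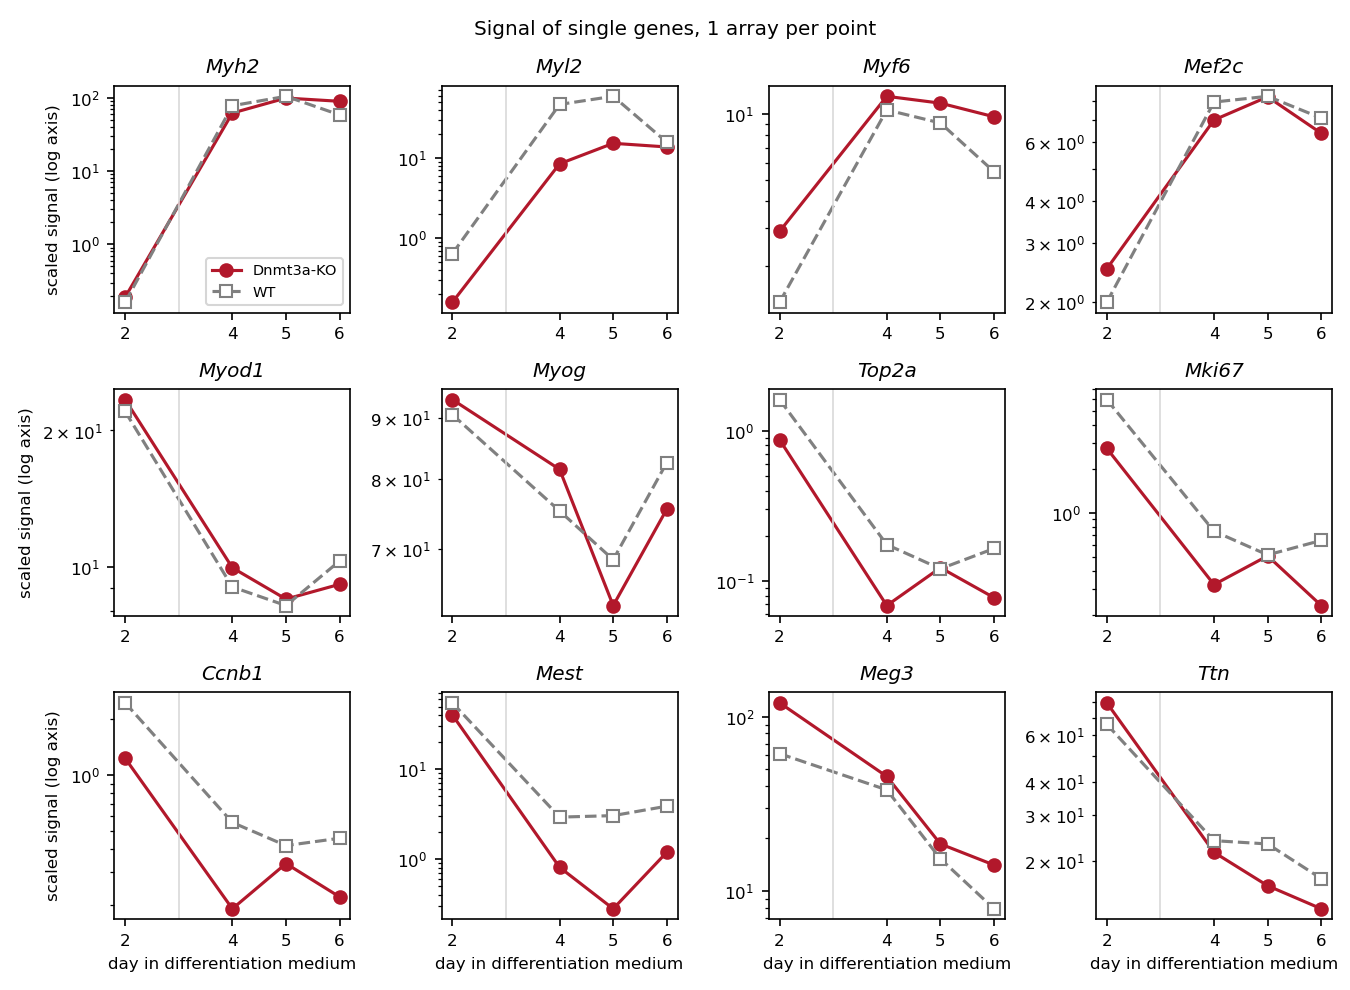
Scaled signal (log axis) of 12 genes against the day in differentiation medium, 1 array per point, Dnmt3a-KO in filled circles and WT in open squares; the vertical line parts day 2, which has its own slide and scanner, from the later days. Myh2 goes from 0.189 to 61.7 between days 2 and 4 in Dnmt3a-KO, Top2a from 0.874 to 0.0688, and the Meg3 probe shown is lower on each day in turn.

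Of 26 genes of Z-disc and giant proteins 15 rose (57.7%) and 4 fell (15.4%; median 0.78), beside 16.4% and 13% of all genes tested. Tcap, the titin cap, read 35.1 on day 2 and 150.4, 174 and 186 later (2.27 ± 0.17; limma adjusted p = 0.0177), and Xirp2, an actin-binding repeat protein, read 0.325 and then 4.32, 3.75 and 3.34 (3.54 ± 0.19; limma adjusted p = 0.0157). Myot, Myoz2, Csrp3 and Smpx also rose, by 4.08, 2.54, 2.22 and 1.77; Myot had no usable spot on day 6. The 4 that fell were Ttn, Neb, the myosin chaperone Unc45b and the ankyrin repeat protein Ankrd2. Ttn, the elastic giant of the sarcomere, read 79.8 on day 2 and 21.6, 16.1 and 13.2 later (-2.26 ± 0.34; limma adjusted p = 0.0335), lower on every array than on the one before. Its other 3 probes differed by -2.41, -2.73 and -1.69. Those that differed by -2.73 and -1.69 were lowest on day 5, at 0.136 and 1.44, and read 0.161 and 1.77 on day 6. Neb, nebulin, read 30.6 and then 18.0, 15.7 and 16.0 (-0.89 ± 0.13; limma adjusted p = 0.0316).

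Excitation-contraction coupling, the release of calcium that follows a membrane signal, gave 12 rises (50%) and 2 falls (8.33%) among 24 genes (median 0.75). Of all genes tested 16.4% rose and 13% fell. Sln, sarcolipin, which restrains the calcium pump, read 5.04 on day 2 and 112.5, 90.3 and 133 later (4.46 ± 0.27; limma adjusted p = 0.0169). Rrad, a small GTPase that restrains calcium channels, read 0.431 and then 5.76, 3.52 and 4.58 (3.39 ± 0.34; limma adjusted p = 0.022). Cacna1s, the voltage sensor, read 73.7 and then 137, 128 and 129 and rose by 0.83 ± 0.09 (limma adjusted p = 0.0248), whereas Ryr1, the calcium release channel it acts on, read 27.1 and then 17.6, 18.5 and 15.9 and fell by 0.65 ± 0.13 (limma adjusted p = 0.0494). At the neuromuscular junction 2 of 15 genes rose and 2 fell. Colq, which anchors acetylcholinesterase, rose by 1.18, while Chrng, the fetal receptor subunit, fell by 0.96 and Utrn, utrophin, fell by 1.81.

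Energy genes gave fewer calls. In oxidative phosphorylation 25% rose and 0% fell, and in creatine, glycolysis and glycogen 17.2% and 10.3%. Of all genes tested 16.4% rose and 13% fell. Of 36 genes of oxidative phosphorylation 9 rose and 0 fell (median 0.36), led by muscle isoforms of cytochrome oxidase: Cox7a1 read 2.66 on day 2 and 11.4, 13.9 and 15.3 later (2.34 ± 0.22; limma adjusted p = 0.0209), and Cox8b read 19.2 and then 55.2, 59.3 and 63.5 (1.62 ± 0.12; limma adjusted p = 0.018). Among 29 genes of creatine, glycolysis and glycogen 5 rose and 3 fell (median 0.24, which turned to -0.125 with quantile normalization). Ckmt2, mitochondrial creatine kinase, read 0.368 and then 2.20, 3.08 and 2.65 (2.83 ± 0.24; limma adjusted p = 0.02), Gyg, which primes glycogen, rose by 2.16, and Eno1, the non-muscle enolase, fell by 0.96. Ckm, the cytosolic muscle creatine kinase, read 6.78 and then 12.2, 17.2 and 16.2 and missed the threshold (limma adjusted p = 0.0584).

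The myogenic factors split in 3 rises and 3 falls among 13 genes (23.1% each), beside 16.4% and 13% of all genes tested. Myf6, a late factor of myotubes, read 2.89 on day 2 and 12.1, 11.3 and 9.75 later (1.93 ± 0.17; limma adjusted p = 0.0201), and Mef2c, a partner of the myogenic factors, read 2.51 and then 7.0, 8.21 and 6.39 (1.51 ± 0.19; limma adjusted p = 0.0268). Myod1 read 23.4 and then 9.98, 8.52 and 9.18 and fell by 1.34 ± 0.13 (limma adjusted p = 0.0219), and Tcf12, an E protein that pairs with it, fell by 1.18. For these 4 genes the day 2 value lay outside the range of the later arrays; for Myog the difference was -0.35 ± 0.20 (limma adjusted p = 0.249). Of 18 fusion genes 3 rose and 4 fell. Mymk, the membrane activator of fusion, read 59.6, 53.6, 45.3 and 49.2 with no call, Cav3, the muscle caveolin, rose by 1.09 ± 0.09, and Cdh15, M-cadherin, fell by 1.41 ± 0.15 (limma adjusted p = 0.0196 and 0.0236).

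Genes of mitosis fell together: 22 of 39 passed the test (56.4%), all lower, where 13% of all genes tested fell. Of the 39 mitosis genes 37 were below day 2 on all 3 later arrays, and the median of the list was -2.24. The upstream sequences of 5 of them are shown first, because these genes moved together and promoters of mitotic genes are known for CCAAT boxes and cell cycle homology regions; that of Myh2, the gene that rose most, stands beside them. They are the 150 bases before the first listed start (RefSeq, GRCm38.p6), 5′ to 3′ on the gene's own strand, with CCAAT boxes and TTTGAA in capitals on either strand (ATTGG and TTCAAA where they lie on the other one).
Top2a: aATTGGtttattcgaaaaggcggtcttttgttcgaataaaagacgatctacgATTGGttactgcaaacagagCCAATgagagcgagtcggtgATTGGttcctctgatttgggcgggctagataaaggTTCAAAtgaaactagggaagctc
Mki67: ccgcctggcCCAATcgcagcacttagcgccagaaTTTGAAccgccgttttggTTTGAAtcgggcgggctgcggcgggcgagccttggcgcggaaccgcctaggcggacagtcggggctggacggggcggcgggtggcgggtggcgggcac
Cdk1: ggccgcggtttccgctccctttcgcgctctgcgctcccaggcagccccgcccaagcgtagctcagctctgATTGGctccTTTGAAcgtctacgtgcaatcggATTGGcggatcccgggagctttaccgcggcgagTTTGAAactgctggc
Ccnb1: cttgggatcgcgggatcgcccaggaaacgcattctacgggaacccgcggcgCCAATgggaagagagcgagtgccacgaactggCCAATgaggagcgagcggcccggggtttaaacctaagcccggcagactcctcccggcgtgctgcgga
Plk1: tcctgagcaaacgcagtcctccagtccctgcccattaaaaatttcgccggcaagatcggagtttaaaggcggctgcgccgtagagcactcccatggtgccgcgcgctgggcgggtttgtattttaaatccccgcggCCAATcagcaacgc
Myh2: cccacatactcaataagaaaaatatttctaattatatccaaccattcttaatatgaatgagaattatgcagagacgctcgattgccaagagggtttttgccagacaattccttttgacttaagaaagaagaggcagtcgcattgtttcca
The windows lie at chr11:99024190-99024339 (minus strand), chr7:135716380-135716529 (minus), chr10:69352913-69353062 (minus), chr13:100786487-100786636 (minus), chr7:122159285-122159434 (plus) and chr11:67170877-67171026 (plus). No motif shares a base with another in these windows. The Top2a window holds 4 CCAAT and 1 TTTGAA, and that of Cdk1 holds 2 and 2. Over 250 bases upstream, searched on both strands, CCAAT was found for 25 of the 33 mitosis genes with a listed promoter (75.8%) against 34.5% of 27025 promoters, 1 per gene, and TTTGAA for 10 (30.3%) against 16.3%. CCAAT was also found for 24 of 37 genes of S phase entry and replication (64.9%) and for 9 of 17 collagens (52.9%), a list with 0 falls against day 2, and in the 4 lists of sarcomere, Z-disc and coupling genes its share was 20% to 38.5%. TTTGAA was found for 0% to 15.4% of these 6 lists. The E-box CAGCTG, against 12.8% of all promoters, was found for 5 of 20 developmental sarcomere genes (25%), 4 of 11 fast sarcomere genes (36.4%), 6 of 19 Z-disc genes (31.6%) and 6 of 13 genes of excitation-contraction coupling (46.2%), and for 5.41% to 12.1% of the replication, mitosis and collagen lists. The MEF2 motif, against 3.01%, was found for 10%, 27.3%, 31.6% and 15.4% of the same 4 muscle lists and 0% to 6.06% of the other 3. The Myh2 window holds none of these letters. Of the same windows of 2 other genes that rose, not shown, that of Myl2 holds none and that of Myh7 holds 1 CCAAT. Each match is a match of letters only.

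Top2a, the topoisomerase that untangles replicated chromosomes (probe at chr11:98855522-98855581, mm9), read 0.874 on day 2 and 0.0688, 0.123 and 0.0776 later (-3.33 ± 0.42; limma adjusted p = 0.0272). Mki67, the coat protein of mitotic chromosomes, read 2.76 and then 0.322, 0.507 and 0.232 (-3.04 ± 0.53; limma adjusted p = 0.0414). Both were highest on day 2 and, among the later arrays, on day 5. The same order of days held for Cdk1, the mitotic kinase (0.342, 0.0524, 0.0971, 0.0685), for its cyclin Ccnb1 (1.23, 0.192, 0.335, 0.222) and for the kinase Plk1 (2.45, 0.324, 0.529, 0.317), which differed by -2.28, -2.35 and -2.69. Genes of S phase entry and replication gave 15 falls (34.1%) and 1 rise (2.27%) among 44 (median -0.99), beside 13% and 16.4% of all genes tested. Tk1, thymidine kinase, read 1.18 and then 0.163, 0.264 and 0.153 (-2.65 ± 0.41; limma adjusted p = 0.0344), Mcm7 of the replicative helicase fell by 1.06, and Rpa2 of the single-strand binding complex rose by 0.84. Pcna, the sliding clamp, read 4.51 on day 2 and 3.73, 4.06 and 4.99 later, with no call. WT gave a median of -2.48 for the mitosis genes.

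Among 10 cyclin-dependent kinase inhibitors 1 rose and 1 fell. Cdkn1c, the imprinted inhibitor p57, read 75 on day 2 and 3.83, 7.30 and 5.13 later (-3.84 ± 0.44; limma adjusted p = 0.025). Cdkn1a, the inhibitor p21 that marks cell cycle exit of myoblasts, read 73.0, 73.4, 74.3 and 73.2, a spread of 0.01 (log2, SD) over the later days and a difference of 0.01 ± 0.08 from day 2. Its other probe, dimmer but above background on all 4 arrays, read 1.17, 0.672, 1.0 and 0.642, a difference of -0.64. Cdkn2d, p19, rose by 1.1 ± 0.12 (limma adjusted p = 0.0233).

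Genes of the satellite cell state fell more often than they rose, 8 (38.1%) against 2 (9.52%) of 21 (median -1.20). Of all genes tested 13% fell and 16.4% rose. Pax7, the defining factor of satellite cells, read 0.787 on day 2 and 0.119, 0.0597 and 0.133 later (-3.00 ± 0.59; limma adjusted p = 0.0479). Fgfr4, a growth factor receptor of myoblasts, read 4.16 and then 0.267, 0.318 and 0.293 (-3.83 ± 0.14; limma adjusted p = 0.0136). The later arrays agreed closely for Fgfr4 and less so for Pax7, where day 5 was lowest. The 2 that rose were Cxcr4 and Cd34; Cd34, which also marks fibro-adipogenic cells, read 0.357 and then 3.49, 8.79 and 3.79. In the Notch pathway, a brake on myogenic differentiation, 4 of 16 genes fell (25%) and 2 rose (12.5%), with a list median of -0.495. The shares of all genes tested were 13% and 16.4%. The receptor Notch3 read 5.51 and then 0.398, 0.328 and 0.544 (-3.73 ± 0.35; limma adjusted p = 0.0211), its mediator Rbpj fell by 1.21 and the target Heyl by 2.45, while the ligands Dll3 and Jag1 rose by 1.85 and 0.95. Notch3 is also a pericyte marker.

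Imprinted genes, expressed from one parental copy and marked by DNA methylation, gave 6 falls (24%) and 0 rises (0%) among 25 (median -0.66). Of all genes tested 13% fell and 16.4% rose. Mest, one of the 12 largest falls (probe at chr6:30698279-30698338, mm9), read 40.4 on day 2 and 0.814, 0.281 and 1.20 later (-5.96 ± 1.01; limma adjusted p = 0.0393), and its other probes differed by -6.04 and -5.68. Plagl1, a zinc finger factor, read 21.2 and then 2.71, 1.54 and 1.92 (-3.40 ± 0.39; limma adjusted p = 0.025), and Peg3 fell by 1.77. In both cases day 5 was the lowest array. The other Peg3 probe read 1.12, 1.06, 0.740 and 0.832, a smaller difference of -0.37. H19, a bright noncoding RNA of muscle, read 276 and then 380.5, 366 and 397 and missed the threshold (limma adjusted p = 0.0519), and a dim further probe differed by -0.96. Igf2, its neighbour, read 12, 8.42, 5.72 and 5.95, also without a call. In the insulin-like growth factor axis as a whole 0 of 17 genes rose (0%) and 3 fell (17.6%), beside 16.4% and 13% of all genes tested. Those that fell were the binding proteins Igfbp3 and Igfbp2, by 2.53 and 2.30, and the adaptor Irs1, by 1.01.

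Other large falls were in genes of varied function. Cpa1, a carboxypeptidase, read 3.44 on day 2 and 0.0241, 0.0323 and 0.0196 later (-7.11 ± 0.34; limma adjusted p = 0.0152), and Eya2, a transcriptional coactivator of muscle precursors, read 9.11 and then 0.234, 0.165 and 0.271 (-5.38 ± 0.35; limma adjusted p = 0.0172). Syt10, a vesicle protein, read 1.35 and then 0.0253, 0.0268 and 0.0242. For all of them the day 2 array alone was high, as it was in WT. Gzme and Gzmd of the granzyme cluster, Grik3, Ppnr, Cxcl13 and Il17b completed the 12 with the Y-linked Eif2s3y and Ddx3y.

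Signalling genes moved in a mixed way. In the BMP and GDF pathway 10 of 31 genes rose (32.3%) and 4 fell (12.9%), with a median of 0.87, beside 16.4% and 13% of all genes tested. Of its ligands, Gdf5 read 0.853 on day 2 and 3.94, 2.37 and 3.53 later (1.91 ± 0.37; limma adjusted p = 0.0465), Bmp2, Bmp4 and Gdf15 rose by 2.22, 2.40 and 2.60, and the antagonist Fst rose by 1.76. The receptor Bmpr2 fell by 1.11 and the target genes Id3 and Id4 by 0.72 and 2.04. Among 24 genes of TGF-beta, activin and myostatin 3 rose and 2 fell: Tgfb1 rose by 1.52 ± 0.10 (limma adjusted p = 0.0172), the antagonist Fstl3 by 2.46, and the activin receptor Acvr2b fell by 1.83. Mstn, which limits muscle growth, read 2.37, 0.988, 0.651 and 0.610 and missed the threshold (limma adjusted p = 0.0541).

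Of 18 genes of endoplasmic reticulum stress 8 rose (44.4%) and 0 fell (median 0.79), beside 16.4% and 13% of all genes. Those that rose included the transcription factors Atf4, which read 1.34 on day 2 and 2.75, 2.91 and 2.93 later (1.1 ± 0.09; limma adjusted p = 0.0198), and Atf3, which rose by 2.45. The chaperone Hspa5 read 42.0, 36.6, 40.8 and 38.6 with no call. Of 19 p53 targets 6 rose (31.6%) and 1 fell (5.26%), the death receptor Fas by 2.39 ± 0.18 (limma adjusted p = 0.0178). Among 20 atrophy genes 5 rose (25%) and 3 fell (15%). Fbxo40, a muscle ubiquitin ligase subunit, read 0.0298 and then 1.61, 1.05 and 1.32 (5.46 ± 0.30; limma adjusted p = 0.016), Sqstm1, an autophagy receptor, rose by 2.02, and Foxo1 fell by 1.29. Interferon response genes gave 5 rises (26.3%) and 3 falls (15.8%) among 19.

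**Figure D2:**
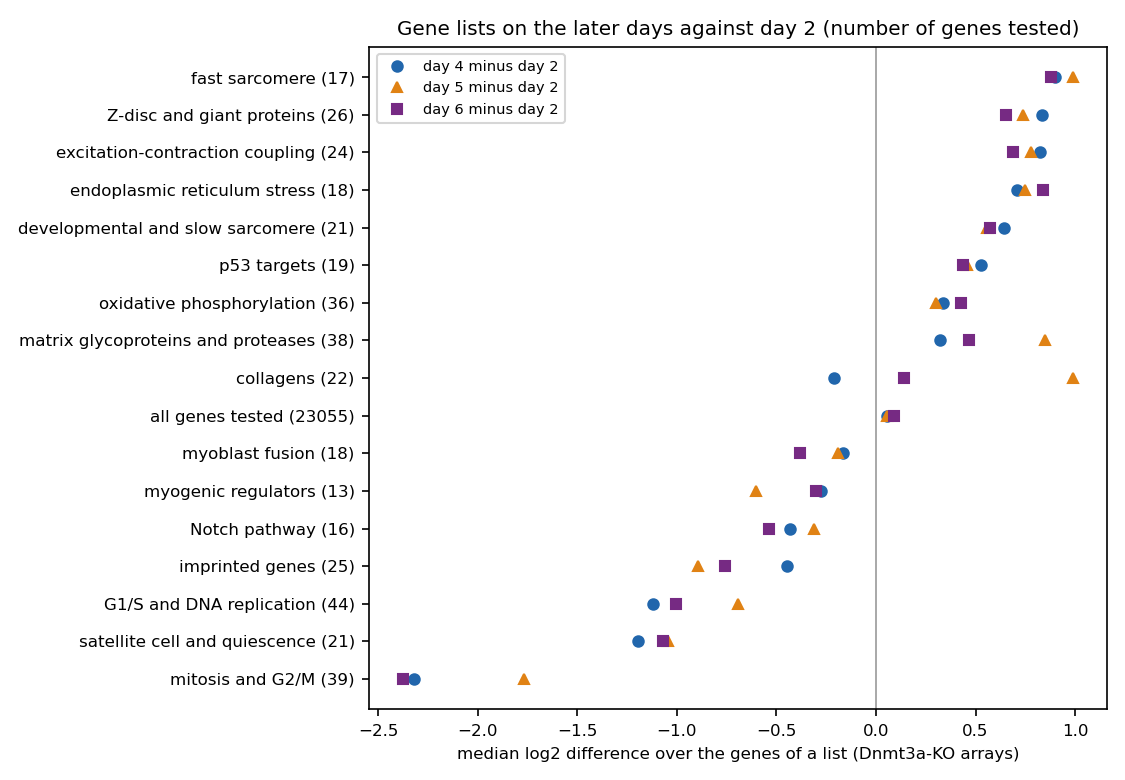
Median log2 difference of each Dnmt3a-KO array of day 4, 5 or 6 from the day 2 array over the genes tested of 16 gene lists, with their number in parentheses, beside all genes tested. The mitosis list lies lowest, with a median of -2.24 over the later days, and the symbols of day 5 stand apart for the collagens.

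Markers of other cells gave calls against day 2 in both directions, at 7.14% to 30.8% rising and 0% to 27.3% falling over 7 lists, beside 16.4% and 13% of all genes tested. Over the fibroblast markers 1 of 14 rose and 1 fell, over the macrophage markers 3 and 3 of 11, over the endothelial markers 2 and 2 of 10, over the smooth muscle and pericyte markers 2 and 3 of 13, over the Schwann cell markers 4 and 1 of 13, over the adipocyte markers 2 and 0 of 9 and over the tendon markers 1 and 0 of 12. Csf1r, the growth factor receptor of macrophages, read 0.233 on day 2 and 0.888, 0.906 and 0.911 later, and Itgam read 20.8 and then 8.75, 10.1 and 7.74. Dimmer probes differed by 0.44 and 0.34 for Csf1r and by 1.51 and -0.07 for Itgam. The median of the adipocyte, endothelial, macrophage, smooth muscle and Schwann cell lists was above 0 here and below 0 with normexp correction. Their part in the results was not tested.

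The second comparison, of days 4, 5 and 6 among themselves, leaves the day 2 slide aside. With 1 array per day no single step has a replicate check. A slope over the 3 days, fitted by limma, gave 0 calls among 22977 genes (0%), with 539 at an unadjusted p under 0.05; with 1 residual degree of freedom this count does not show that genes held their level. Counts of genes at least 2-fold apart, with the brighter array well above background, therefore describe these arrays only. Between days 4 and 6, 425 genes (1.85%) were higher and 415 (1.8%) lower on day 6. Day 5 was farther from both than they were from each other: 949 genes (4.13%) were higher and 626 (2.72%) lower on day 5 than on day 4, and 538 (2.34%) were higher and 752 (3.26%) lower on day 6 than on day 5, although days 4 and 5 shared a slide.

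**Figure D3:**
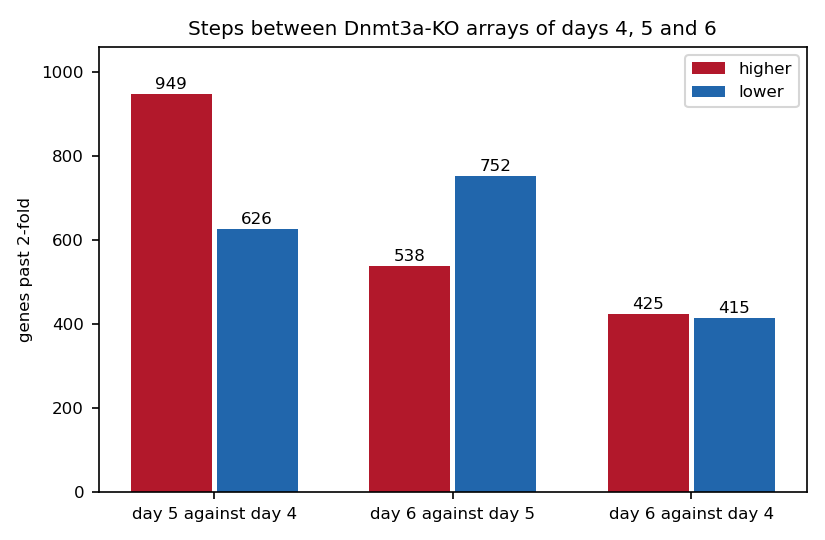
Number of genes at least 2-fold higher (red) or lower (blue) between single Dnmt3a-KO arrays of days 4, 5 and 6, with no replicate check. The step from day 4 to day 6 has the lowest bars, 425 and 415.

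On day 5, 13 of 22 collagen genes stood at least 2-fold above both day 4 and day 6, beside 590 of 23055 genes in all. Of the list, 13 were at least 2-fold higher and 2 lower on day 5 than on day 4, and 2 were higher and 13 lower on day 6 than on day 5. Of all genes tested, 4.13% were higher and 2.72% lower in the first step, and 2.34% and 3.26% in the second. The medians of the list were 1.49 from day 4 to 5 and -1.15 from day 5 to 6, beside -0.03 and 0.04 over all genes. Col1a1, a chain of the main fibrillar collagen (probe at chr11:94813115-94813174, mm9), read 0.584, 2.42, 24.6 and 5.13 on days 2, 4, 5 and 6, and Col4a1 of the basement membrane read 1.48, 1.20, 7.79 and 1.63. Col1a2, the partner chain of Col1a1, read 74.9, 14.4, 66.7 and 21.6, so that day 2 was as high as day 5 for Col1a2 but not for Col1a1. The collagens at least 2-fold lower on day 5 than on day 4 were Col8a2, which was at the floor on day 5, and Col25a1. Against day 2 the collagens gave 0 calls of 22 in either direction, with a median of 0.27 that turned to -0.21 under normexp correction; 9 were above day 2 on all later arrays and 6 below.

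Matrix glycoproteins, proteases and their inhibitors followed the same course over the days. Of 38 genes, 20 were at least 2-fold higher and 1 lower on day 5 than on day 4, and 0 were higher and 15 lower on day 6 than on day 5. The shares of all genes tested were 4.13% and 2.72% in the first step and 2.34% and 3.26% in the second. Fn1, fibronectin, read 19.3, 27.6, 92.9 and 49.1, Fbln2, fibulin 2, read 1.69, 7.68, 48.5 and 10.7, and Loxl2, a collagen crosslinking enzyme, read 0.354, 0.484, 4.14 and 0.611. Day 5 was the highest of the 4 arrays for each of them. The related enzyme Lox read 0.0442, 1.25, 3.49 and 1.75 and was the single gene of the list that rose against day 2 (5.48 ± 0.70; limma adjusted p = 0.0277). Ccn2, a matricellular protein known to respond to TGF-beta, read 1.33, 11.1, 53.4 and 16.4 and stood high on day 5 as well.

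Chemokines and cytokines showed 9 of 21 genes at least 2-fold higher on day 5 than on day 4 and 1 lower. In this step 4.13% of all genes tested were higher and 2.72% lower. Ccl2, which attracts monocytes, read 0.542, 1.31, 6.39 and 2.17, Ptgs2, the inducible cyclooxygenase, read 0.222, 1.02, 3.72 and 1.36, and Il1b went the other way at 0.0441, 0.165, 0.0525 and 0.0799. Markers of fibroblasts moved with the matrix genes: 9 of 14 were at least 2-fold higher on day 5 than on day 4 and 0 lower, with a median of 1.35. Thy1 read 0.263, 0.413, 3.82 and 0.833 and Mfap5 read 0.142, 1.04, 6.46 and 2.13, whereas Tcf7l2 read 0.413, 0.112, 0.108 and 0.122 and Pdgfra stayed low at 0.0203, 0.0984, 0.183 and 0.0628. Among smooth muscle and pericyte markers Cnn1 read 0.0295, 0.0570, 1.51 and 0.194 and Tagln read 29.7, 25.8, 111 and 32.5, while Acta2 read 117, 108, 109.8 and 102. The part of these cells in the day 5 pattern was not tested.

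Of all 23055 genes tested, 590 stood at least 2-fold above both days 4 and 6 on day 5 and 145 below both. Counts of 0 or 1 in lists as small as those below cannot be told apart from these shares. Of 17 fast sarcomere genes Myh4 alone stood 2-fold above both neighbours on day 5, and of the developmental sarcomere, Z-disc, excitation-contraction coupling and oxidative phosphorylation lists 0 genes did so in either direction. Mitosis genes were a little higher on day 5, with medians of 0.74 from day 4 to 5 and -0.63 from day 5 to 6, and 0 of 39 stood 2-fold above both neighbours. In the WT course, on the same slides, the median step from day 4 to 5 was 0.52 for the collagens, 0.47 for the fibroblast markers and -0.45 for the mitosis genes. Col1a1 read 13.6, 21.3 and 12.3 on days 4, 5 and 6 in WT, so that Dnmt3a-KO lay below WT on days 4 and 6 and near it on day 5. The difference between genotypes in a single step was not tested.

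**Figure D4:**
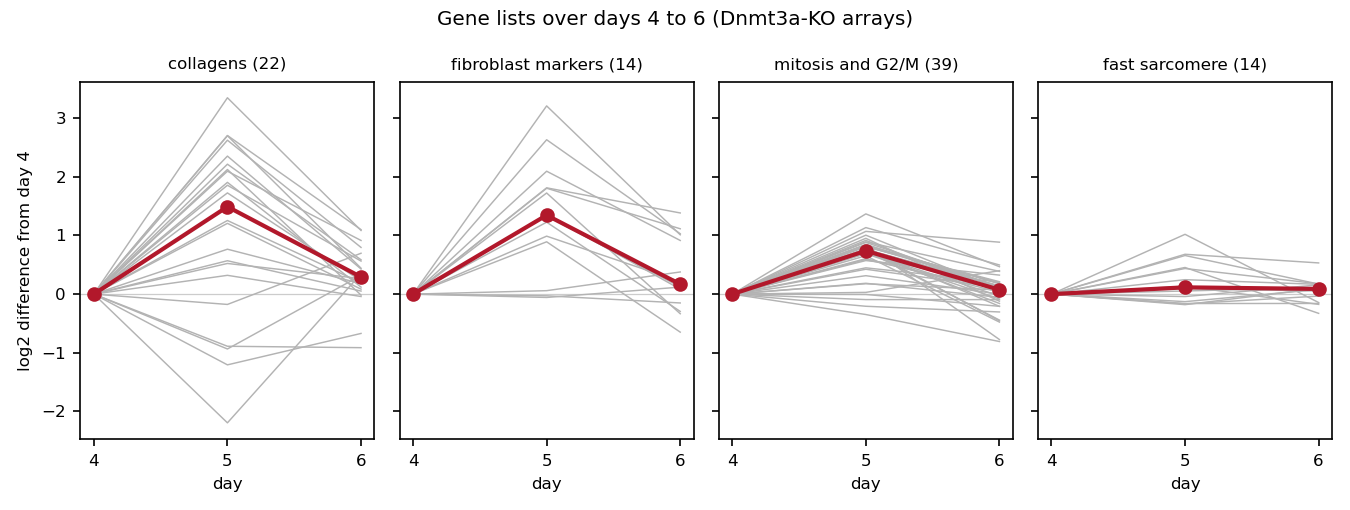
Log2 difference from day 4 on days 5 and 6 for the genes of 4 lists in Dnmt3a-KO, each thin line 1 gene and the thick line the list median; fast sarcomere genes without a usable spot on 1 of the days are left out. The collagen median is 1.49 on day 5 and 0.29 on day 6, and the fast sarcomere median stays near 0.

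Steady courses over the 3 days were counted among the genes at least 2-fold apart between days 4 and 6. Day 5 lay between days 4 and 6 for 152 of the 425 genes higher and 207 of the 415 lower on day 6. Of the 840 genes 2-fold apart, 232 were well above background on all 4 arrays. Most of the genes with the largest such steps, chosen by size alone, were near background, and Rbm8a read 5.81, 4.99 and 6.06 on days 2, 5 and 6 and the floor on the day 4 array alone. Genes above background on all 4 arrays with day 5 between the others are given as a set chosen after its values were seen. One of the bright ones was Meg3, a maternally expressed noncoding RNA. It read 120.0 on day 2 and 45.4, 18.6 and 14.1 on days 4, 5 and 6, and in WT 61.3, 38.0, 15.3 and 7.91. Its other 2 probes were lowest on day 5, at 0.162, 0.0714 and 0.115 and at 4.04, 1.75 and 1.76 on days 4, 5 and 6, so that the fall after day 5 was seen by 1 of the 3 probes. Mirg, from the same cluster, read 22.6, 6.90, 5.11 and 4.61. Without any fold threshold, 8 of the 25 imprinted genes were lower on each day in turn from day 4 and 1 higher, beside 2680 and 3085 of all 23055 genes. In the other direction Cck, the gene of cholecystokinin, read 0.819, 2.71 and 3.13 on days 4, 5 and 6, and Aqp5, a water channel, read 0.506, 1.41 and 2.18. Dimmer genes also moved in turn: Kcne1l read 0.126, 0.729 and 1.12, and Itga8, an integrin chain, read 0.107, 0.0639 and 0.0317.

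The third comparison asked where the knockout course departed from that of WT, through the interaction of genotype with the later days against day 2 over all 8 arrays. Relative to WT, 25 of 23045 genes (0.108%) had a higher and 90 (0.391%) a lower change, and 1412 had an unadjusted p under 0.05 (limma). With day as a block, which compares the arrays of a day with each other, limma called 0 and 0, with 1736 at an unadjusted p under 0.05; Med4 then had an adjusted p of 0.117 (limma). Normexp correction also gave 0 and 0, with 81 genes at an unadjusted p under 0.05. Of the 115 genes called without the block, 101 were well above background on 1 Dnmt3a-KO array only and 10 on all 4, and for 88 of the 90 lower ones Dnmt3a-KO itself was lower later. Med4 led them, with 0.0173 on day 2 and 2.36, 2.13 and 2.66 later in Dnmt3a-KO against 2.62, 2.02, 2.07 and 2.38 in WT (limma adjusted p = 0.00104). None of the genes of contraction, cell cycle, imprinting or matrix described above was called. Myh2 differed by -0.16, Top2a by 0.08, Mest by -1.89 and Dnmt3a by -1.20 (limma adjusted p = 0.567 for Dnmt3a and 0.999 for the others). The interaction of genotype with the slope over days 4 to 6 gave 0 calls among 23031 genes (0%; 532 at an unadjusted p under 0.05, limma).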

How the data were processed

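RNA of the 4 Dnmt3a-KO arrays was compared, with the 4 WT arrays for the interactions. The deposited scanner files hold processed signals, background-corrected spot intensities from Agilent Feature Extraction (version 9.5 per the submitters' processing notes; versions 9.5.3.1 and 11.0.1.1 per the file headers). The authors' deposited value table, a score per probe, equalled 100 times the processed signal over the array's 75th percentile, rounded, with negative values at 0. Its scale and centring are thus known; column medians were 6 or 7. It served as an alternative.

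Processed signals were divided by the 75th percentile of each array's 43020 non-control spots (1482.3, 815.1, 841.3 and 743.7 intensity units on days 2, 4, 5 and 6), set to at least 0.00763 (log2 -7.03), and taken to log2. Spots with an outlier flag were left out, spots of a probe averaged, and the brightest probe of each gene kept, of 39429 probes; 26055 matched RefSeq by accession. Genes well above background on at least 1 Dnmt3a-KO array were tested, 23055 of 31895, 15471 with a symbol; 78 lacked 1 later array. Values at the floor have no spread of their own and take limma's pooled one. Replicate spots of a probe had a median SD of 0.0591 on day 2 and 0.139 to 0.151 later (399 probes). Where a group lay below background, a bound ("at least") was taken from the detection limit of each array or the probe's reading, whichever was larger.

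limma 3.58.1 in R 4.3.3 fitted the arrays (lmFit and eBayes) with Benjamini-Hochberg adjustment over all genes tested. Simulated arrays of 22831 genes held 100 genes changed by 1 (log2) and 100 changed by 3, the rest unchanged. The share changed was far below the 29.4% called in the real fit against day 2, which makes the adjusted threshold stricter. The counts that follow therefore do not give the recovery of that fit, which called smaller differences such as Ryr1 at -0.65. In the simulation the fit against day 2 recovered 0 of 100 genes changed by 1 and 47 of 100 changed by 3. The interaction with the later days recovered 3 and 70 of 100. The Dnmt3a-KO slope recovered 0 and 0, and the interaction with the slope 0 and 42. Single-day steps had no test. Lists were described by counts and medians. Named genes were Dnmt3a, the 12 largest rises and 12 largest falls called against day 2 and from day 4 to 6 with day 5 between, up to 8 per direction in each interaction, and the core and most changed genes of 35 lists; some genes that this rule names are not reported here, and genes without a symbol were skipped (6 falls against day 2, and 4 rises and 12 falls from day 4 to 6). The genes of the day 5 and steady courses were chosen after their values were seen. Members and lists were chosen with earlier results of these data known. Since each group is 1 array, p-values measure the spread between days, which may be technical. Alternatives were quantile, median and normexp processing, the value table (log2 with 1 added), other filters, probe rules, variance trend, all arrays, a linear slope, other fold thresholds and leaving out days. Probe positions are mm9; promoters are RefSeq GRCm38.p6.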

Additional observations from a re-analysis of the deposited data

Results flagged for a closer look

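Effects that differed between the genotypes, by limma's interaction of genotype with the later days against day 2, were 25 genes with a higher and 90 with a lower change in Dnmt3a-KO than in WT. With day as a block limma called 0 and 0 of them (1736 genes at an unadjusted p under 0.05), so none of the values below passed in that fit. The differences of the named ones (log2, KO minus WT) were 7.39 for Med4, 6.43 for Tmem39a, 3.81 for Acyp1, 3.1 for Tchh, 2.85 for H1f6, 2.52 for Slc5a4a, 2.33 for Olfr790 and 2.04 for Tex14 in the higher direction. In the lower direction they were -4.44 for Skint6, -3.69 for Olfr996, -3.28 for Olfr923, -3.19 for Ccl12, -3.15 for Adam18, -3.08 for Tekt3 and -2.96 for Pramel22. For Ccl12, a chemokine, Dnmt3a-KO read 0.0696 on day 2 and the floor on days 4, 5 and 6, and WT read the floor on all days. For Acyp1 the other 2 probes differed by 0.35 and -0.31 between the later days and day 2 in Dnmt3a-KO. Tmem39a read the floor on day 2 in Dnmt3a-KO alone, where WT read 0.779.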

How the results depend on the processing

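The counts against day 2 rest on the spread of days 4 to 6. Leaving out day 4, 5 or 6 gave 0 rises and 0 falls each time, with 1 residual degree of freedom, and a linear slope over days 2 to 6 gave 0 and 0. The cause was not tested for either. Falls numbered 6876 with normexp and 4600 with all 8 arrays. Without a filter on dim probes there were 2154 rises and 1849 falls; the cause was not tested. Of the 6770 calls, 4893 were shared in direction with normexp, 5631 with quantile normalization, where rises were 49.2% of calls, 5121 with the value table and 6333 with all 8 arrays. Among single values against day 2, 1437 either kept their call and its direction or were called in neither fit, whatever their direction. A further 343 lost and 67 gained the call. The values of Adgre1 and Ptprc turned to -0.21 and -0.34 with normexp. For the interaction, 152 genes were lower with quantile normalization, 13 higher with a variance trend, and 294 higher and 320 lower without a filter. There were 0 and 0 with normexp, with day as a block, and on leaving out both arrays of any later day, and 2 and 0 with genes above background on all 4 Dnmt3a-KO arrays, these being Med4 and a transcript without a symbol. Differences that turned with normexp were Olfr996 at 0.0635, Ccl12 at 0.10, Adam18 at 0.19, Tekt3 at 0.13 and Pramel22 at 0.23. Steps higher and lower were, from day 4 to 6, from 4 to 5 and from 5 to 6, with normexp 59 and 37, 393 and 62, 50 and 238; above background on all arrays 98 and 134, 552 and 267, 147 and 385; at 1.5-fold 1028 and 1053, 1947 and 1637, 1262 and 1642; at 3-fold 199 and 165, 447 and 233, 274 and 295. The collagen median from day 4 to 5 was 1.16 with normexp. Slopes gave 0 calls under all alternatives run; for the Dnmt3a-KO slope, with 1 residual degree of freedom, this says nothing about stability. The day block pairs the genotypes within a day, not replicates, as each genotype and day has 1 array; the number of arrays limits the precision.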

Other observations

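Some courses over the days belong to no list. Gal, the gene of the neuropeptide galanin, read 53.2 on day 2 and 4.22, 0.971 and 4.32 on days 4, 5 and 6 in Dnmt3a-KO, lowest on day 5, and 27.6, 4.93, 2.07 and 2.92 in WT. Erdr1 read 21.2, 19.8, 14.3 and 6.83 in Dnmt3a-KO and 18.2, 10.3, 11.8 and 14.1 in WT. Dnmt3a-KO thus lay above WT on days 2, 4 and 5 and below it on day 6. Aqp5 read 1.65, 3.01 and 6.12 on days 4, 5 and 6 in WT, where Dnmt3a-KO read 0.506, 1.41 and 2.18. Id4, a target of BMP signalling, read 0.920 on day 2 in Dnmt3a-KO and 0.233 in WT, and between 0.198 and 0.295 on all later arrays of both. These genes were chosen after their values were seen, and no single step has a replicate check.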
